A study of Mus musculus with 6 samples.

Results

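In the mouse melanocyte line melan-a with activated BRAF, the arrays labelled ZEB2 and SNAIL2 were set against the arrays labelled TWIST1 and ZEB1, which are 4 of the 6 arrays of the study. A gene was counted when both arrays of one side lay at least 2-fold above both arrays of the other, so that the smallest of its 4 cross ratios was 2 or more. Of 11901 genes compared, 236 (1.98%) were higher on the ZEB2 and SNAIL2 side and 193 (1.62%) were higher on the TWIST1 and ZEB1 side. The first group held the master regulator of pigment cells, Mitf, with 20 other pigment cell genes, and genes of cholesterol synthesis. The second group held genes of the interferon response, of peptide loading onto MHC class I, the chemokines Ccl2, Ccl5 and Cxcl10 and the metalloproteinases Mmp1a, Mmp3 and Mmp13, while Mmp2, Adam12 and Hpse, also matrix proteases, were in the first group.

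Melan-a is an immortal line grown from epidermal melanoblasts, the precursors of melanocytes, of C57BL/6 mouse embryos. All cultures carried delta-BRAF-ER, a BRAF kinase in active form that its fused ER part keeps idle until tamoxifen is added, and the 4 arrays compared came from cultures with BRAF activated that also carried ZEB2, SNAIL2, TWIST1 or ZEB1. The remaining arrays came from cultures with delta-BRAF-ER alone, without activation (BRAF-off) and with it (BRAF-on), and these arrays took no part in choosing genes. Total RNA was hybridised to 1 array per group. The time after activation, the promoters that drove the introduced factors and whether a culture was a clone are details the sources used here do not give. The arrays of a side carry different factors and are not replicates, so no spread can be estimated, no test was run, and every fold describes these arrays only.

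Melanocytes make melanin in melanosomes, organelles that are loaded with enzymes and fibril proteins and then moved to the cell edge, and the transcription factor MITF drives many of the genes involved. ZEB1, ZEB2, SNAIL2 and TWIST1 are DNA-binding proteins of embryonic development that take part in neural crest migration and in the epithelial to mesenchymal transition. ZEB2 and SNAIL2 are present in normal melanocytes, and a shift from these factors towards TWIST1 and ZEB1 has been described during melanoma progression. The study asked how each factor acts on the genes that activated BRAF controls.

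The probe sets for the introduced factors do not check the labels. On the brightest probe set of each gene, Snai2 had a signal of 4201 with ZEB2, 3142 with SNAIL2, 4946 with TWIST1 and 3547 with ZEB1, and was thus lowest on the array labelled with it. Zeb2 was at 1132, 362, 901 and 540.2 in the same order, highest on its own array, but its probe sets disagreed. The next brightest were at 756, 519, 787 and 376 and at 700, 692, 729 and 437, both highest with TWIST1. Dimmer ones, at 380 and 147 with ZEB2, were highest there. Twist1 was at 209, 138, 278 and 404, highest on the array labelled ZEB1, and Zeb1 was at 168, 121, 110.2 and 109, highest on the array labelled ZEB2. Braf itself was at 746, 715, 949 and 437. The arrays read transcripts near their end, and whether they can see the introduced copies was not stated. The arrays are therefore called by their labels.

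The mean signal with the outer 2% of probe sets trimmed off at each end was 500 on every array, and the median difference between the sides over all genes compared was -0.01 on the log2 scale. Signals are in the arbitrary units of the deposited table, values under a floor of 64.0 were raised to it, and a fold is called "at least" where both arrays of the lower side lay under it. Among control probe sets, those for 18S ribosomal RNA had geometric mean signals of 9571 with ZEB2 and 7609 with SNAIL2 against 3439 with TWIST1 and 4046 with ZEB1, with the sides apart on all 3 probe sets. The spiked poly-A transcripts were at 416, 763, 274 and 432 in the same order of arrays. The part of either in the results was not tested. The ratio of the 3' to the 5' probe set of beta-actin, a sign of RNA quality, lay between 1.36 and 1.54 on the 6 arrays.

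The genes higher with ZEB2 and SNAIL2 were further apart than those higher with TWIST1 and ZEB1. The median of the smallest cross ratio was 2.87-fold for the 236 genes and 2.45-fold for the 193 genes. A smallest ratio of at least 4-fold was reached by 74 and 12 genes, and one of at least 8-fold by 15 genes and by 1 gene. Both arrays of the lower side lay under the floor for 36 of the 236 genes and 27 of the 193. On all 4 arrays, 139 of the 236 and 147 of the 193 lay at or above the floor. With no demand on size, both arrays of one side lay above both of the other for 2954 genes (24.8%) in favour of ZEB2 and SNAIL2 and 3052 genes (25.6%) in favour of TWIST1 and ZEB1.

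**Figure D1:**
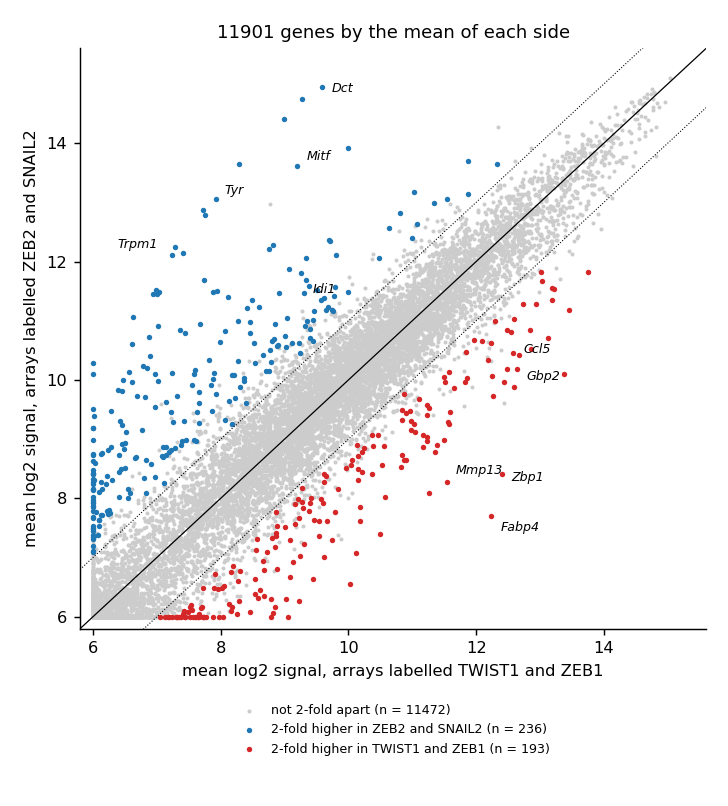
Mean log2 signal of the arrays labelled ZEB2 and SNAIL2 (vertical) against that of the arrays labelled TWIST1 and ZEB1 (horizontal) for the 11901 genes compared, 1 point per gene, with equality as a solid line and 2-fold differences of the means as dotted lines. The 236 blue genes reach further from the line than the 193 red ones, and points on the edge at 6 lie at the floor.

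The arrays of a side differed from each other as well. Over all genes compared, 423 genes were at least 2-fold apart between ZEB2 and SNAIL2 and 888 between TWIST1 and ZEB1. Among the 236 genes, SNAIL2 was the higher array of its side in 199, so that ZEB2 set the smallest ratio there, and ZEB1 was above TWIST1 in 155. TWIST1 lay under the floor for 91 of the 236 genes and ZEB1 for 42. Among the 193 genes, ZEB2 lay above SNAIL2 in 142 and was the array nearer to the other side, and SNAIL2 lay under the floor for 43 and ZEB2 for 30. SNAIL2 thus stood further from the TWIST1 and ZEB1 side than ZEB2 did for most genes of both groups.

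Just inside the 2-fold limit lay Ttpa (at least 2.002-fold) and Chn2 (2.001-fold) for ZEB2 and SNAIL2, and Dapk1 (at least 2.002-fold) and Plekha4 (2.001-fold) for TWIST1 and ZEB1. Just outside lay Fasn (1.999-fold) and Coro7 (1.996-fold) on the one side and Bgn (1.997-fold) and Rassf5 (1.995-fold) on the other. For 118 of the 236 genes several probe sets were measured, and all of them were 2-fold apart in the same direction for 42. For the 193 genes the corresponding counts were 62 and 21. Another probe set lay the opposite way for 3 of the 236 genes and for 0 of the 193. At least 2 probe sets were 2-fold apart the same way for 64 of the 118 genes and 28 of the 62. Disagreement between probe sets is not given for every gene named below.

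Pigment cell genes were the list with the largest median difference in favour of ZEB2 and SNAIL2. Of 27 compared from a list of 29, 21 were 2-fold higher with ZEB2 and SNAIL2, beside 1.98% of all genes, and 0 with TWIST1 and ZEB1. In 25 the ZEB2 and SNAIL2 side lay wholly above, beside 24.8% of all genes. The median difference of the sides was 3.45 on the log2 scale, beside -0.01 over all genes. With TWIST1, 15 of the 27 lay under the floor and with ZEB1 2 did, and the median of ZEB1 minus TWIST1 was 1.53. SNAIL2 was the highest of the 4 arrays for 26 genes and TWIST1 the lowest for 24. Slc24a5, a pigment transporter, was not analysed here. In RNA from whole cultures, fewer pigmented cells and less pigment gene RNA per cell cannot be told apart.

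Among the lineage transcription factors, Mitf, which activates melanin and melanosome genes, had a signal of 11060.3 with ZEB2, 14255 with SNAIL2, 245 with TWIST1 and 1410.3 with ZEB1. Both arrays of the first side lay far above both of the second, and TWIST1 was lowest, so that the smallest ratio was 7.84-fold. Lef1, a partner of beta-catenin that acts with MITF, was at 559 with ZEB2, 650.2 with SNAIL2, 33.5 with TWIST1 and 120.2 with ZEB1, a smallest ratio of 4.65-fold. Sox10, a neural crest factor upstream of Mitf, was at 5182 with ZEB2, 7757 with SNAIL2, 1941 with TWIST1 and 2375 with ZEB1. Its sides stood only 2.18-fold apart at the closest. Tfap2a (1.65-fold) and Pax3 (1.32-fold), which specify the same lineage, had sides that did not overlap but lay under 2-fold. Sox10, Tfap2a and Pax3 thus had smaller ratios between the sides than Mitf.

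The 3 melanin enzymes were all under the floor with TWIST1. Tyr encodes tyrosinase, which carries out the first step of melanin synthesis, and was at 7467 with ZEB2, 9714 with SNAIL2, 28.7 with TWIST1 and 922 with ZEB1, with BRAF-off at 5366 and BRAF-on at 2583. Tyrp1, an enzyme of the eumelanin branch, was at 25678 with ZEB2, 29340.3 with SNAIL2, 13.1 with TWIST1 and 5999.7 with ZEB1. Dct, dopachrome tautomerase, was at 29621 with ZEB2, 33845 with SNAIL2, 4.54 with TWIST1 and 9319 with ZEB1. For each, ZEB1 kept a signal well over the floor while TWIST1 did not, so the smallest ratios of 8.10-fold, 4.28-fold and 3.18-fold were all set by ZEB1.

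The windows around the starts of these 3 enzyme genes are shown because MITF binds the M-box, whose core letters are CATGTG or, on the other strand, CACATG. Each window runs from 250 bases before to 50 bases after the RefSeq start (build GRCm38.p6), is written 5' to 3' along the gene, and carries the core in capitals. Tyr lies on the minus strand at chr7:87493463-87493762, Tyrp1 on the plus strand at chr4:80833963-80834262 and Dct on the minus strand at chr14:118052197-118052496.
Tyr: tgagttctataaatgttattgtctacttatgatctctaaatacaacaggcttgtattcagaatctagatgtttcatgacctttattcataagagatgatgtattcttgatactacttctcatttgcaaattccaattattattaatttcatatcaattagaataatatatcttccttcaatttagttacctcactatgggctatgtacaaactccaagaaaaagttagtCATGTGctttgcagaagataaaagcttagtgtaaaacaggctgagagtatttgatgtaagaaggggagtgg
Tyrp1: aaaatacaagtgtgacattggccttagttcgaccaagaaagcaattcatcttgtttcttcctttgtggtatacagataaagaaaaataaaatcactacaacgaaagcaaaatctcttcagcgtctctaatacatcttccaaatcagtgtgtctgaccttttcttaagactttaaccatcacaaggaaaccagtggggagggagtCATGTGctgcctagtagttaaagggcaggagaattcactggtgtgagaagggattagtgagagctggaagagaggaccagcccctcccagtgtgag
Dct: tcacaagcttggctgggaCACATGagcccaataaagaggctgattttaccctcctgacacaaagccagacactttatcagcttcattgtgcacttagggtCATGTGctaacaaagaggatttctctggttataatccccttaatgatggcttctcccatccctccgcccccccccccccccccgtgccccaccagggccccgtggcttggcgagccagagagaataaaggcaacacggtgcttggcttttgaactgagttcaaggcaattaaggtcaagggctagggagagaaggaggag

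The core starts 21 bases before the gene start in Tyr, 46 before it in Tyrp1, and 232 and 150 before it in Dct, where the first match is on the other strand. Windows of Trpm1, Oca2 and Mc1r also held it, and those of Mitf, Kit, Met and Cdk2 did not. RefSeq windows were at hand for 19 of the 27 pigment genes. It was present in 8 of 28 windows of the pigment genes (28.6%), in 27 of 259 windows of the 236 genes (10.4%) and in 19 of 175 of the 193 genes (10.9%). The share over all genes compared was 8.51%, and it was 14.2% over every window given. The full E-box CACGTG, which MITF also binds and which reads the same on both strands, was in 29 of 259 windows of the 236 genes (11.2%), in 9 of 175 of the 193 genes (5.14%) and in 6 of 28 of the pigment genes (21.4%), beside 9.70% of all genes compared. A match of these letters is a description and not a binding site.

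Melanosome structure and transport genes were also higher with ZEB2 and SNAIL2, with TWIST1 lowest for most of them. Pmel, which forms the fibrils that melanin is laid on, was at 19313 with ZEB2, 24591 with SNAIL2, 57.0 with TWIST1 and 4076 with ZEB1. Mlana, a melanosome membrane protein, was at 12368 with ZEB2, 13282 with SNAIL2, 42.1 with TWIST1 and 1533 with ZEB1. Gpr143, the receptor of ocular albinism, was at 1409.6 with ZEB2, 2643 with SNAIL2, 40.4 with TWIST1 and 261 with ZEB1. On each of them TWIST1 lay under the floor and ZEB1 between TWIST1 and the other side. Gpnmb, a melanosome glycoprotein, was at 16479.6 with ZEB2, 23639 with SNAIL2, 2527 with TWIST1 and 10585 with ZEB1, and with ZEB1 this close to ZEB2 the smallest ratio was 1.56-fold. All 5 transport genes were 2-fold apart, beside 1.98% of all genes. They were Mlph (5.26-fold), Rab38 (5.45-fold), Rab32 (4.05-fold), Rab27a (2.87-fold) and Myo5a (2.87-fold). Mlph, Rab27a and Myo5a together link melanosomes to actin, and Rab38 and Rab32 send cargo to them. For Rab32 and Myo5a the arrays labelled TWIST1 and ZEB1 were nearly level, at 847 and 947 and at 887 and 877.

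Of 7 channels and transporters compared, 4 were 2-fold higher with ZEB2 and SNAIL2, beside 1.98% of all genes. With TWIST1, 6 of the 7 were under the floor. Trpm1, a cation channel named melastatin, was at 3924 with ZEB2, 4953 with SNAIL2, 2.33 with TWIST1 and 357 with ZEB1, a smallest ratio of 11.0-fold. Slc45a2, a melanosome transporter tied to pale skin, was at 6135 with ZEB2, 8144 with SNAIL2, 19.1 with TWIST1 and 728 with ZEB1. Oca2, the pink-eyed dilution protein, was at 2118 with ZEB2, 4105 with SNAIL2, 17.5 with TWIST1 and 252 with ZEB1. In these as well TWIST1 was under the floor and ZEB1 came next. Kcnj13, a potassium channel, was 4.10-fold apart. Slc24a4, an ion exchanger, was at least 1.92-fold higher and missed the limit through ZEB2 at 123, against SNAIL2 at 350.2. Atp7a, a copper transporter present in most cells, was at 1718 with ZEB2 and 1873 with TWIST1, and its sides overlapped.

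All 3 receptors compared belonged to the ZEB2 and SNAIL2 side, beside 1.98% of all genes. Kit, the receptor for stem cell factor on which melanoblasts depend, was at 1675 with ZEB2, 2761 with SNAIL2, 20.8 with TWIST1 and 154 with ZEB1, a smallest ratio of 10.8-fold. Mc1r, the melanocortin receptor that raises Mitf through cyclic AMP, was at 3549 with ZEB2, 5806 with SNAIL2, 57.0 with TWIST1 and 456 with ZEB1. Erbb3, a neuregulin receptor of the neural crest lineages, was 2.42-fold apart. Kit and Mc1r thus lay under the floor with TWIST1, whereas Erbb3 stayed at 1253 there.

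**Figure D2:**
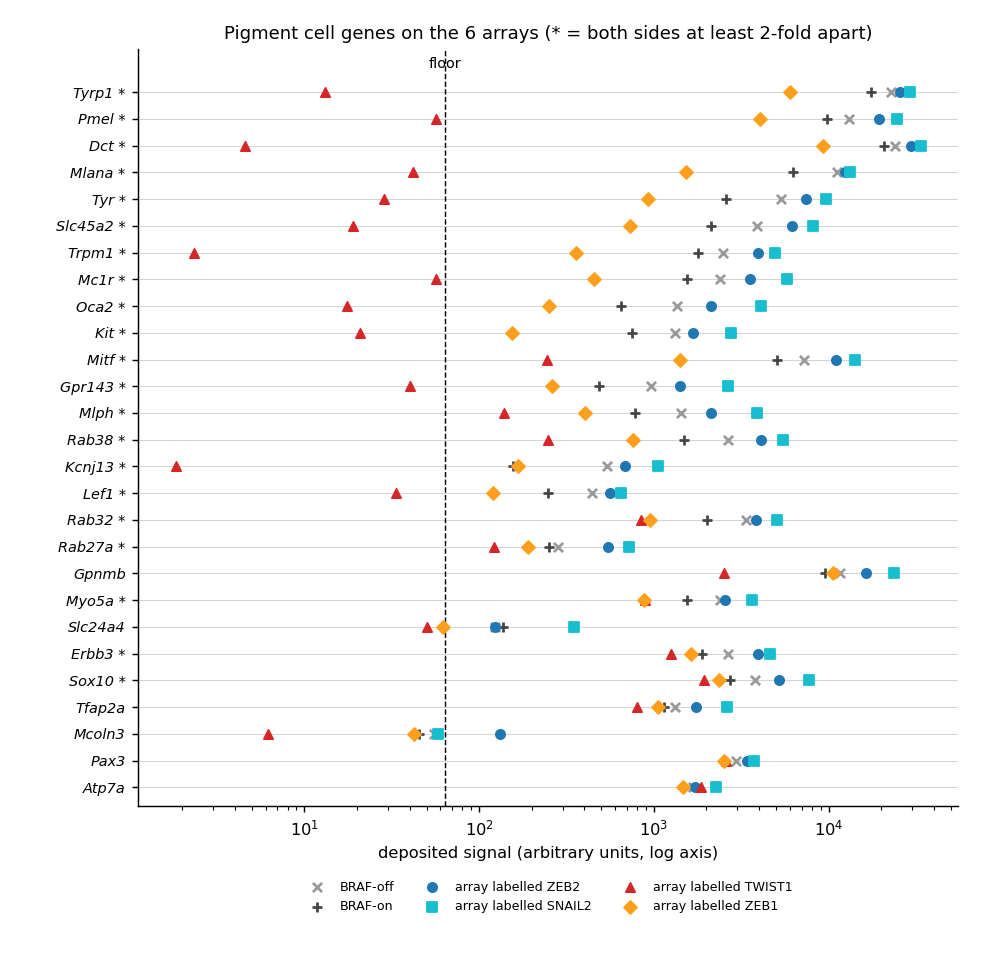
Deposited signal (log axis) of the 27 pigment cell genes compared on each of the 6 arrays, 1 marker per array, ordered by the difference between the sides, with stars on the 21 genes at least 2-fold apart. TWIST1 is the lowest of the 4 compared arrays for 24 genes and SNAIL2 the highest for 26, and the dashed line is the floor of 64.0.

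Beyond the list, the largest ratios on this side belonged to genes of several functions. Cfap54, a gene of motile cilia, was at 939 with ZEB2, 1667 with SNAIL2, 11.5 with TWIST1 and 16.5 with ZEB1, at least 14.7-fold apart. Cttnbp2, a cortactin-binding protein, was at least 14.02-fold higher, and Chsy3, a chondroitin synthase, at least 8.20-fold. In each of these both arrays of the lower side were under the floor. For Chsy3 only 1 of 2 measured probe sets was 2-fold apart. Mgll, which breaks down monoacylglycerols, was at 5484 with ZEB2, 10176 with SNAIL2, 71.3 with TWIST1 and 631 with ZEB1. Mreg, melanoregulin, a melanosome gene (9.34-fold), and Tspan10, a tetraspanin of pigment cells (8.73-fold), also belonged here. Cited1, a transcriptional co-regulator of pigment cells, was at 2851 with ZEB2, 3812 with SNAIL2, 109 with TWIST1 and 420.0 with ZEB1, a smallest ratio of 6.79-fold.

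Other genes of this side measured on all 4 arrays were Dmxl2, which takes part in proton pump assembly (7.56-fold), and Prodh, proline dehydrogenase (6.97-fold). Bcat1, an enzyme of branched-chain amino acids, was 6.35-fold apart on this probe set, but only 1 of its 3 measured probe sets was 2-fold apart. Hvcn1, a proton channel, was 6.13-fold apart with nearly level TWIST1 (132) and ZEB1 (129). Glrb, a glycine receptor subunit, Tmem51, Bfsp2, a lens filament protein, Add3, an adducin of the membrane skeleton, and Art3, an ADP-ribosyltransferase relative, lay between 5.19-fold and 6.24-fold. Adcy2, an adenylate cyclase, was 8.20-fold apart, with ZEB1 under the floor and TWIST1 just above it.

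Some further members were singled out after their values were seen. Nr4a3, an orphan nuclear receptor of the immediate early kind, was at 2077 with ZEB2, 3984 with SNAIL2, 42.3 with TWIST1 and 271 with ZEB1, 7.68-fold apart. Irf4, which acts with MITF on Tyr, was at least 2.54-fold higher, and Tfec, a close relative of Mitf, at least 4.52-fold higher. Lyst (2.60-fold) and Hps3 (2.67-fold), genes of lysosome-related organelles whose loss dilutes coat colour, belonged here too. Mef2c (3.31-fold) and Sox5 (2.96-fold), transcription factors of the neural crest among other tissues, were also higher with ZEB2 and SNAIL2. Bace2, a protease that processes PMEL, was 7.83-fold apart, and Axin2, a target of Wnt signalling, at least 2.44-fold.

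Cholesterol synthesis genes were the next group on the ZEB2 and SNAIL2 side. Of 29 genes of cholesterol and fatty acid synthesis compared, 7 were 2-fold higher with ZEB2 and SNAIL2, beside 1.98% of all genes, and 0 with TWIST1 and ZEB1. In 26 the first side lay wholly above and in 1 wholly below, beside 24.8% and 25.6% of all genes, and the median difference was 1.16. The letters TCACNCCAC of the sterol response element, searched on both strands, were in 1 of 27 windows of these genes (3.70%), beside 1.11% of all genes compared. Idi1, isopentenyl diphosphate isomerase, was at 3058 with ZEB2, 2629.6 with SNAIL2, 706 with TWIST1 and 566 with ZEB1. Hmgcs1, the synthase that makes HMG-CoA, was at 7402 with ZEB2, 8868 with SNAIL2, 2683 with TWIST1 and 2480.4 with ZEB1. For both genes the arrays of a side were closer to each other than to the other side. Mvd (2.65-fold) and Mvk (2.30-fold) of the mevalonate steps, Nsdhl (2.45-fold) and Msmo1 (2.49-fold) of the sterol steps, and Srebf2 (2.84-fold), the factor that turns these genes on when sterol is short, completed the 7. For Mvk, Msmo1 and Srebf2 only 1 of 2 measured probe sets was 2-fold apart. Fasn, fatty acid synthase, at 4701 with ZEB2, 7941 with SNAIL2, 2352 with TWIST1 and 2349 with ZEB1, missed 2-fold narrowly. Scd1, which desaturates fatty acids (1.94-fold), and Sqle, squalene epoxidase (1.94-fold), did too. Srebf1, a relative of Srebf2, was the exception, at 1939 and 2141 against 2343 and 2432, higher with TWIST1 and ZEB1.

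S phase and mitosis genes differed in how far they followed the sides. Of 29 genes of DNA replication and S phase, 2 were 2-fold higher with ZEB2 and SNAIL2, beside 1.98% of all genes, and in 22 that side lay wholly above, beside 24.8%. E2f1, a driver of S phase entry, was at 729.9 with ZEB2, 1222 with SNAIL2, 328 with TWIST1 and 306 with ZEB1. E2f2, its relative, was 2.19-fold apart. For both E2f1 and E2f2 only 1 of 2 measured probe sets was 2-fold apart. Mcm2, part of the replicative helicase, was at 5086 with ZEB2, 6733 with SNAIL2, 2819 with TWIST1 and 1120.2 with ZEB1. ZEB1 was the lowest array there, with TWIST1 between, and the list's median of ZEB1 minus TWIST1 was -0.90. Of 32 mitosis genes 0 were 2-fold apart, and in 12 the ZEB2 and SNAIL2 side lay wholly above (6 with arrays centred on their medians), beside 24.8% of all genes. Their median difference to ZEB1 was 1.21 for ZEB2 and 0.84 for SNAIL2, but to TWIST1 it was 0.11 for ZEB2 and -0.17 for SNAIL2. Top2a, which untangles DNA, was at 8729.9 with ZEB2, 7959 with SNAIL2, 7745 with TWIST1 and 3573 with ZEB1, so that ZEB1 alone stood apart.

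The cell cycle inhibitors and p53 targets held no member 2-fold apart among 22 compared, although Gadd45a and Cdkn2b passed with arrays centred on their medians. The shares over all genes were 1.98% for ZEB2 and SNAIL2 and 1.62% for TWIST1 and ZEB1. In 7 of the 22 the ZEB2 and SNAIL2 side lay wholly above and in 5 the other, beside 24.8% and 25.6% of all genes. Lmnb1, lamin B1, came nearest at 1645 with ZEB2, 1547 with SNAIL2, 785 with TWIST1 and 559.6 with ZEB1, a smallest ratio of 1.97-fold. On the TWIST1 and ZEB1 side, Gadd45a, a growth arrest gene, was at 912 with ZEB2, 521 with SNAIL2, 1692 with TWIST1 and 2825 with ZEB1. Cdkn2b, the inhibitor p15, was 1.82-fold apart. Cdkn1a, the inhibitor p21, was at 806 with ZEB2, 1100.2 with SNAIL2, 598 with TWIST1 and 2287 with ZEB1, highest with ZEB1 and lowest with TWIST1, so that its sides overlapped. Cdkn1c, the inhibitor p57, was 1.71-fold higher with TWIST1 and ZEB1. Cdk2, the kinase of S phase entry and a MITF target that lies beside Pmel in the genome, was named after its values were seen. It was at 4985 with ZEB2, 7425 with SNAIL2, 1676 with TWIST1 and 1512 with ZEB1, 2.97-fold higher with ZEB2 and SNAIL2.

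Interferon response genes were higher with TWIST1 and ZEB1 without exception among the 35 compared from a list of 38. In all 35 both arrays of that side lay above both of the other, beside 25.6% of all genes. At least 2-fold apart were 16, beside 1.62% of all genes, with 0 the other way. Without probe sets that match several transcripts (names ending in _s_at, _x_at or _a_at), 10 were 2-fold apart. Genes with no other probe set, such as Irf7 and Gbp3, left that comparison. The median difference was -1.36. Quantile normalization or centring arrays on their medians left all 35 on that side. Unlike the pigment genes, none of these lay under the floor on any of the 4 arrays, and TWIST1 and ZEB1 were close, with a median of ZEB1 minus TWIST1 of 0.17. SNAIL2 lay below ZEB2 by a median of 0.40.

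Of the sensors and transcription factors, Zbp1, which senses Z-form nucleic acids, was at 704 with ZEB2, 165 with SNAIL2, 6175 with TWIST1 and 4793 with ZEB1. That was the largest smallest ratio of the list, 6.81-fold, though only 1 of its 2 measured probe sets was 2-fold apart. Irf7, a master factor of type I interferon, was at 394 with ZEB2, 457 with SNAIL2, 1518 with TWIST1 and 2218 with ZEB1, 3.33-fold apart. Stat2, which carries the interferon signal to the nucleus, was at 221 with ZEB2, 222 with SNAIL2, 589 with TWIST1 and 756 with ZEB1. Dhx58 (2.19-fold), a helicase of the RNA sensor family, also passed. The sensor genes Ifih1 (1.81-fold) and Ddx58 (1.43-fold) and the factors Irf9 (1.42-fold) and Irf1 (1.58-fold) lay in the same order under 2-fold.

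Among the antiviral effectors, 8 of 22 were 2-fold apart, beside 1.62% of all genes. Oasl1, a relative of the oligoadenylate synthetases, was at 424 with ZEB2, 383 with SNAIL2, 2127 with TWIST1 and 1731 with ZEB1. Ifi27l2a, a small interferon-induced membrane protein, was at 2529 with ZEB2, 478 with SNAIL2, 9396 with TWIST1 and 11914 with ZEB1. SNAIL2 was far below ZEB2 for Ifi27l2a but not for Oasl1. Isg20, an exonuclease, Ifit3 and Ifit1, which act on viral RNA, Mx1, Xaf1 and Oasl2 lay between 2.06-fold and 2.70-fold. Ifitm3, a membrane protein that blocks viral entry, was nearly level, at 26305, 25858, 26778 and 31405. Usp18, which removes ISG15 from proteins (1.78-fold), and the antiviral Oas1a (1.81-fold), Mx2 (1.93-fold) and Rsad2 (1.91-fold) came close to the limit.

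The interferon-inducible GTPases were 2-fold apart in 4 of 5, beside 1.62% of all genes. Gbp2, a guanylate-binding protein that attacks the vacuoles of microbes, was at 1424 with ZEB2, 957 with SNAIL2, 6413 with TWIST1 and 6389 with ZEB1, with TWIST1 and ZEB1 nearly level. Igtp, an immunity-related GTPase, was at 1741 with ZEB2, 1244 with SNAIL2, 6927 with TWIST1 and 7879 with ZEB1. Iigp1 (3.64-fold) and Gbp3 (2.77-fold) passed as well, and Irgm1 (1.58-fold) did not. Outside the list, Gbp8 was at least 6.82-fold higher. The genes of these families resemble each other and their probe sets can pick up relatives. By the narrower mark of names ending in _s_at or _x_at, 28 of the 193 genes, against 16 of the 236, were read by such a probe set.

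Antigen presentation genes went the same way. Of 11 compared, 6 were 2-fold higher with TWIST1 and ZEB1, beside 1.62% of all genes, and in 10 that side lay wholly above, beside 25.6%. Psmb9, a catalytic subunit of the immunoproteasome that cuts peptides for MHC class I, was at 797 with ZEB2, 469.9 with SNAIL2, 3036 with TWIST1 and 3069.9 with ZEB1. Psmb8, another such subunit, was at 697 with ZEB2, 563 with SNAIL2, 3422 with TWIST1 and 2642 with ZEB1. In both the arrays of the higher side were close to each other. For Psmb8 only 1 of 2 measured probe sets was 2-fold apart. Psmb10, the third such subunit, was 2.23-fold apart. Tap1 and Tap2, which pump the peptides into the endoplasmic reticulum, were 2.32-fold and 2.31-fold apart, and Nlrc5, which activates MHC class I genes, 2.47-fold. The class I heavy chains H2-K1 (1.94-fold) and H2-D1 (1.76-fold) lay under the limit, and their probe sets can cross-match. B2m, the light chain, was at 23526 with ZEB2, 15467 with SNAIL2, 25950.3 with TWIST1 and 28787 with ZEB1, only 1.103-fold apart. Erap1, a peptide trimmer, was the member whose sides overlapped.

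**Figure D3:**
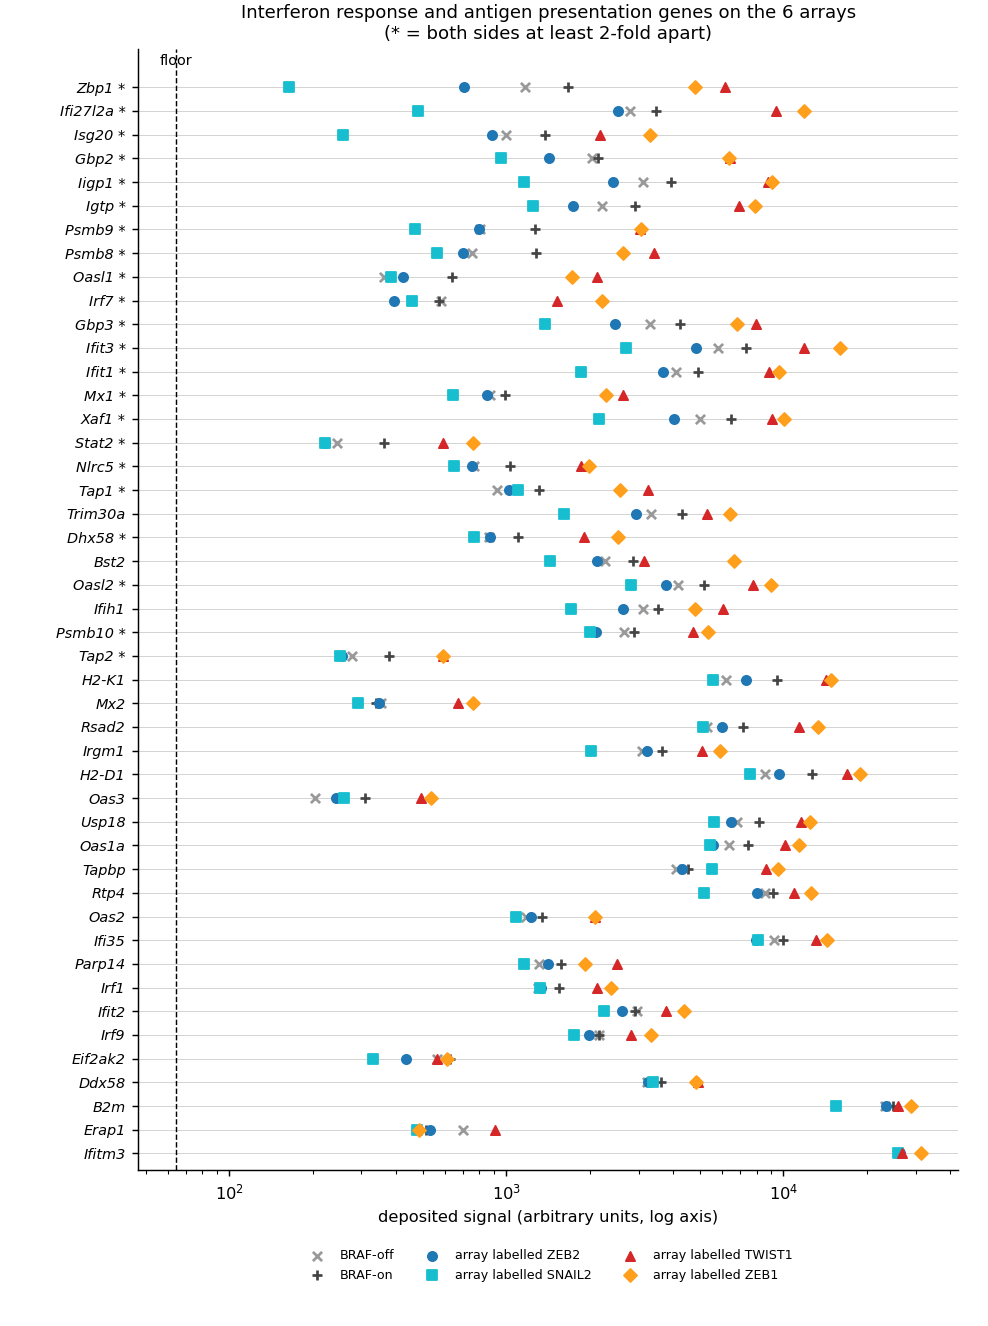
Deposited signal (log axis) of the 35 interferon response and 11 antigen presentation genes compared on each of the 6 arrays, 1 marker per array, with stars on the 22 genes at least 2-fold apart. TWIST1 and ZEB1 lie to the right of ZEB2 and SNAIL2 in 45 of the 46 genes, BRAF-on lies between the sides for 42, and SNAIL2 is the lowest of the 4 compared arrays for 39.

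Windows of Gbp2, Ifit3 and Cxcl10 are shown because interferon-activated factors bind the interferon-stimulated response element, searched here by the core letters GAAANNGAA or, on the other strand, TTCNNTTTC. The layout and build are as above, with the core in capitals. Gbp2 lies on the plus strand at chr3:142620413-142620712, Ifit3 on the plus strand at chr19:34583279-34583578 and Cxcl10 on the minus strand at chr5:92348840-92349139.
Gbp2: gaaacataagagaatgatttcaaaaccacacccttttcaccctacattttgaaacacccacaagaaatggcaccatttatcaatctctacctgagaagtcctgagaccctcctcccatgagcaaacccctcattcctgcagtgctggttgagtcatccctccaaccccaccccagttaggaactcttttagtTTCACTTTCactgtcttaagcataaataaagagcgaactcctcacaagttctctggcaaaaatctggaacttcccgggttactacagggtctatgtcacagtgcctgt
Ifit3: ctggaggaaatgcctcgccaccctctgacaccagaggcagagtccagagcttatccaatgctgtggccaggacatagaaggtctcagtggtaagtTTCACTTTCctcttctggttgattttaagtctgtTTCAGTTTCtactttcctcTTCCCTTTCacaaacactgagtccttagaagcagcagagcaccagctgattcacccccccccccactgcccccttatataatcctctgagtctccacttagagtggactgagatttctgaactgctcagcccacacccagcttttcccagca
Cxcl10: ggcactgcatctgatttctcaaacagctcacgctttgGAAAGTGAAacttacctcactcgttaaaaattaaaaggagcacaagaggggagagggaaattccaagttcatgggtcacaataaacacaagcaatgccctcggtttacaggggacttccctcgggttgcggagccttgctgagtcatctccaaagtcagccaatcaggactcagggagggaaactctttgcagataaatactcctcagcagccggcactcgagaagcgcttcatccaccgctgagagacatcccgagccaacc

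The core starts 58 bases before the start of Gbp2, 213 before that of Cxcl10, and 155, 121 and 102 before that of Ifit3. It was present in 19 of 42 windows of the interferon and antigen presentation genes (45.2%) and in 0 of 28 of the pigment genes. Among the 193 genes higher with TWIST1 and ZEB1 it was in 28 of 175 windows (16.0%), and among the 236 in 14 of 259 (5.41%), beside 6.96% for all genes compared and 8.56% for every window. The windows of Tap1, Psmb9, Psmb8 and Irf7 held no such match, which says only that these letters are not there. For the E-box CACCTG, which ZEB and SNAIL proteins are known to bind, the shares were 19.3% and 19.4% for the 236 and the 193 genes, beside 17.9% for all genes compared.

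Several of the 193 genes are neighbours in the genome. With the genes compared put in order along the chromosomes, 45 of 193 (23.3%) had an adjacent gene that was also 2-fold higher there. On the ZEB2 and SNAIL2 side, 31 of the 235 genes placed (13.2%) had such a neighbour. No such share was computed over all genes compared. Psmb9, Tap1, Psmb8 and Tap2 in the MHC region formed a run of 4, and the starts of Tap1 and Psmb9 lie 226 bases apart. Oasl1 and Oasl2, Ifit3 and Ifit1bl1, and Gbp2 and Gbp3 were other such neighbours. Mmp13, Mmp1b, Mmp3 and Mmp1a formed another run of 4, in a metalloproteinase cluster. Many of these neighbours belong to families of similar genes, and copies can share probe set signal.

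Some chemokines were also higher with TWIST1 and ZEB1. Ccl5, which attracts T cells, was at 1466 with ZEB2, 1338 with SNAIL2, 5448 with TWIST1 and 6839.6 with ZEB1, 3.72-fold apart. Ccl2, which attracts monocytes, was at 1272 with ZEB2, 564 with SNAIL2, 5449.8 with TWIST1 and 4455 with ZEB1, 3.50-fold apart. Cxcl10, an interferon-induced chemokine, was at 784 with ZEB2, 631 with SNAIL2, 4312 with TWIST1 and 2185 with ZEB1, with TWIST1 above ZEB1. These were the 3 of 14 secreted inflammatory factors that passed, beside 1.62% of all genes, with 0 the other way. In 5 of the 14 the TWIST1 and ZEB1 side lay wholly above and in 1 the other, beside 25.6% and 24.8%. The list's median difference was -0.33. Il6, an inflammatory cytokine, was at 103 with ZEB2, 50.6 with SNAIL2, 561 with TWIST1 and 105 with ZEB1, high with TWIST1 alone, so that its smallest ratio was 1.01-fold. Csf2, a growth factor of myeloid cells, was at least 1.46-fold higher with TWIST1 and ZEB1, with ZEB2 and SNAIL2 under the floor.

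Matrix proteases and their inhibitors passed on both sides, more of them with TWIST1 and ZEB1. Of 17 compared, 5 were 2-fold higher with TWIST1 and ZEB1 and 3 with ZEB2 and SNAIL2, beside 1.62% and 1.98% of all genes. In 11 the TWIST1 and ZEB1 side lay wholly above and in 4 the other, beside 25.6% and 24.8%. The median difference was -1.02. Mmp3, stromelysin 1, was at 187 with ZEB2, 152 with SNAIL2, 1192 with TWIST1 and 1756 with ZEB1. Mmp1a, an interstitial collagenase, was at 433 with ZEB2, 170.1 with SNAIL2, 2313 with TWIST1 and 2628 with ZEB1. In both ZEB2 lay above SNAIL2 and far below TWIST1 and ZEB1. Mmp13, collagenase 3, was at 373 with ZEB2, 261 with SNAIL2, 1137 with TWIST1 and 7843 with ZEB1, with ZEB1 far above TWIST1 and a smallest ratio of 3.05-fold. Mmp10, stromelysin 2, was at 1382 with ZEB2, 637 with SNAIL2, 2348 with TWIST1 and 6592 with ZEB1 and missed the limit at 1.70-fold. Serpinb2, an inhibitor of plasminogen activators, was at 718 with ZEB2, 360.2 with SNAIL2, 2104 with TWIST1 and 3948 with ZEB1. Plat, tissue plasminogen activator, was 2.02-fold apart, though only 1 of its 2 measured probe sets was 2-fold apart. On the other side stood Adam12, a disintegrin protease, at 1812 with ZEB2, 2141 with SNAIL2, 124 with TWIST1 and 339 with ZEB1. Mmp2, gelatinase A, was at 1788 with ZEB2, 2329.5 with SNAIL2, 235 with TWIST1 and 405 with ZEB1. Hpse, heparanase, was at least 6.93-fold higher there. Mmp14, the activator of Mmp2, had overlapping sides (5610.5, 6082, 5519 and 7923).

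Mesenchymal genes were mostly higher with TWIST1, and less with ZEB1. Of 29 compared, 2 were 2-fold higher with TWIST1 and ZEB1, beside 1.62% of all genes. In 14 that side lay wholly above and in 4 the other, beside 25.6% and 24.8% of all genes. Fap, fibroblast activation protein, was at 86.1 with ZEB2, 77.7 with SNAIL2, 582 with TWIST1 and 288 with ZEB1. Myl9, a myosin light chain of smooth muscle, was at 113 with ZEB2, 88.7 with SNAIL2, 401 with TWIST1 and 342 with ZEB1. ZEB1 lay below TWIST1 in both. Acta2, smooth muscle actin, was at 3909 with ZEB2, 5471 with SNAIL2, 18263 with TWIST1 and 2017 with ZEB1. Tagln, an actin-binding protein of smooth muscle, was at 897 with ZEB2, 958 with SNAIL2, 6564 with TWIST1 and 278 with ZEB1. Both were highest with TWIST1 and lowest with ZEB1, so that their sides overlapped. Fmod, a collagen-binding proteoglycan, was at 80.7 with ZEB2, 103 with SNAIL2, 1284 with TWIST1 and 67.0 with ZEB1. Cnn1, calponin, was at 17.98 with ZEB2, 69.8 with SNAIL2, 779 with TWIST1 and 13.1 with ZEB1. Both were high with TWIST1 alone. Dcn, decorin, was at 253 with ZEB2, 109 with SNAIL2, 1679 with TWIST1 and 494 with ZEB1, just under the limit. Vim (30119, 29120.0, 28321 and 28382) and Cdh2 (4219.5, 4478, 4856 and 3865), which mark the mesenchymal state in many tissues, were nearly level. In the list, the median difference to TWIST1 was -0.93 for ZEB2 and -0.85 for SNAIL2, and to ZEB1 -0.26 and -0.18.

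Markers of other cell types were checked beside these groups, and their part in the results was not tested. Of 13 fibroblast markers 11 were compared. Wholly higher with TWIST1 and ZEB1 were 8 of these, and 1 with ZEB2 and SNAIL2, beside 25.6% and 24.8% of all genes. At least 2-fold apart was 1, Fap, beside 1.62% of all genes. Under the floor were 4 of the 11 with ZEB2, 4 with SNAIL2, 0 with TWIST1 and 2 with ZEB1. Pdgfra and Col6a3 were compared only because TWIST1 and ZEB1 reached the floor, so they could lie higher on that side only. With TWIST1 and ZEB1 the summed signal of the 11 was 40348 and 33087, against 25980 with ZEB2 and 20610 with SNAIL2. Lum and Dpt were under the floor on all 4 arrays, and so were the leukocyte markers Ptprc, Adgre1, Itgam, Aif1, Cd14 and Tyrobp. The 5 of 11 macrophage and leukocyte markers compared summed to 906, 797, 921 and 1406 with ZEB2, SNAIL2, TWIST1 and ZEB1. The 5 of 10 keratinocyte markers compared summed to 485, 434, 548 and 768, with Krt14 and Trp63 under the floor. The 3 of 9 endothelial markers compared summed to between 185 and 345, with Pecam1 under the floor. Of 10 Schwann and glial markers 4 lay wholly higher on each side, beside 24.8% and 25.6% of all genes, at sums between 6279 and 6656. Among the 10, 0 were 2-fold apart, beside 1.98% and 1.62% of all genes. With arrays centred on their medians 1 passed for ZEB2 and SNAIL2, and 3 lay wholly higher on each side.

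Of 13 genes of the undifferentiated melanoma state compared, 2 were 2-fold higher on each side, beside 1.98% of all genes for ZEB2 and SNAIL2 and 1.62% for TWIST1 and ZEB1. In 7 the TWIST1 and ZEB1 side lay wholly above and in 3 the other, beside 25.6% and 24.8%. The median difference was -0.49. Met, the receptor for hepatocyte growth factor, was at 7750.0 with ZEB2, 10907 with SNAIL2, 2017 with TWIST1 and 2151 with ZEB1. Nes, the neural progenitor filament nestin, was 3.50-fold apart, though only 1 of its 3 measured probe sets was 2-fold apart. Both were higher with ZEB2 and SNAIL2. Wnt5a, a Wnt ligand of invasive melanoma cells, was at 257 with ZEB2, 185 with SNAIL2, 1358 with TWIST1 and 582 with ZEB1. Nt5e, the ectoenzyme CD73, was at least 2.71-fold apart. Both were higher with TWIST1 and ZEB1. Axl, a receptor of the same melanoma state, was nearly level (6514, 6293, 6514 and 7436). Among epithelial adhesion genes 0 of 12 were 2-fold apart, and Cdh1 was under the floor on all 4 arrays. Krt18, a keratin of simple epithelia, was at least 1.92-fold higher with TWIST1 and ZEB1, with ZEB2 and SNAIL2 under the floor. Of 9 transcription factors of the epithelial to mesenchymal transition compared, 0 were 2-fold apart.

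Genes downstream of ERK, the kinase that BRAF signals to, gave 1 member 2-fold apart in each direction. The shares over all genes were 1.98% for ZEB2 and SNAIL2 and 1.62% for TWIST1 and ZEB1. Among the 24 compared, Myc, a growth-promoting transcription factor, was at 2248 with ZEB2, 2379.7 with SNAIL2, 759.9 with TWIST1 and 850.2 with ZEB1, 2.64-fold higher with ZEB2 and SNAIL2. Dusp5, a phosphatase that acts on ERK, was at 236 with ZEB2, 249 with SNAIL2, 566 with TWIST1 and 1065 with ZEB1, 2.27-fold higher with TWIST1 and ZEB1. The feedback genes Dusp6 (7476, 8899, 4804 and 8122) and Spry4 (657, 676, 519 and 794) had overlapping sides. The median difference was -0.10, beside -0.01 over all genes. Of 17 genes of the TGF-beta and BMP response, 2 were 2-fold higher with ZEB2 and SNAIL2 and 2 with TWIST1 and ZEB1, beside 1.98% and 1.62% of all genes. In 8 the TWIST1 and ZEB1 side lay wholly above and in 2 the other, beside 25.6% and 24.8%. Id2 (3.09-fold) and Id4 (2.26-fold), inhibitors of helix-loop-helix factors, were higher with ZEB2 and SNAIL2. For Id4 only 1 of 3 measured probe sets was 2-fold apart. Their relatives Id1 (1.30-fold) and Id3 (1.17-fold) lay wholly higher with TWIST1 and ZEB1. Tgfb3, a TGF-beta ligand (2.60-fold), and Ltbp2, a latent TGF-beta binding protein relative (2.12-fold), were higher with TWIST1 and ZEB1. With arrays centred on their medians Ltbp2 no longer passed and Tgfb3 did.

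Outside the lists, the largest ratio of the TWIST1 and ZEB1 side belonged to Fabp4, a fatty acid carrier of fat cells and macrophages, at 401 with ZEB2, 108 with SNAIL2, 3616 with TWIST1 and 6449 with ZEB1, 9.02-fold apart. Chrna1, the alpha subunit of the muscle acetylcholine receptor, was at 92.1 with ZEB2, 64.9 with SNAIL2, 552 with TWIST1 and 648 with ZEB1. Clec2d, a lectin ligand of natural killer receptors, was 5.81-fold apart, and H2-Q5, a class I gene of the MHC whose probe set may read relatives, at least 5.75-fold. Mpeg1, perforin-2, a gene of macrophages that interferon also raises, was at 139 with ZEB2, 16.9 with SNAIL2, 782 with TWIST1 and 1377 with ZEB1. Sprr1a, a gene of the cornified envelope and of stressed cells (4.18-fold), Rhox5, a homeobox gene of the X chromosome (3.86-fold), and Qpct, glutaminyl cyclase (3.73-fold), were also among the largest. Plac8 (3.39-fold), Upk3b (3.48-fold), Tcstv3 (3.74-fold) and Rgcc (2.86-fold) had 1 array of the lower side under the floor. Col9a3, a cartilage collagen, Il18bp, which binds interleukin-18, and Stbd1, a glycogen-binding protein, were at least 3.38-fold, 3.21-fold and 3.10-fold higher.

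Further members of this side were singled out after their values were seen. Apoe, apolipoprotein E, was at 474 with ZEB2, 456 with SNAIL2, 1514 with TWIST1 and 3498 with ZEB1, 3.20-fold apart. Apod and Clu, other secreted lipid-binding proteins, were 2.79-fold and 2.25-fold apart. Nupr1, a stress-induced nuclear protein, was at 1354 with ZEB2, 662 with SNAIL2, 4596 with TWIST1 and 8336 with ZEB1, 3.39-fold apart. Complement genes were present with C1s1 (3.46-fold), C1ra (2.15-fold) and Serping1 (at least 2.18-fold), whose products start or restrain the classical pathway. Cd274, the checkpoint ligand PD-L1, was 2.38-fold apart, at 169.8 with ZEB2, 153 with SNAIL2, 403 with TWIST1 and 499 with ZEB1. The insulin-like growth factor binding proteins Igfbp7 (2.43-fold) and Igfbp3 (2.30-fold), the Notch receptor Notch1 (2.49-fold) and its ligand Dll1 (2.18-fold), and Bmp4 (2.57-fold) were also higher with TWIST1 and ZEB1.

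The remaining lists held few or no members 2-fold apart. Over all genes the shares were 1.98% for ZEB2 and SNAIL2 and 1.62% for TWIST1 and ZEB1. At such shares, lists of this size hold few or no members 2-fold apart in any case. Among 16 integrins and laminins only Itga1, a collagen receptor subunit, passed, 2.20-fold higher with ZEB2 and SNAIL2, and it no longer passed with arrays centred on their medians. Only 1 of its 2 measured probe sets was 2-fold apart. Of 27 lysosome and autophagy genes, 18 genes of glycolysis and hypoxia, 11 of the BCL2 family and 10 housekeeping genes, 0 were 2-fold apart. Of 18 genes of the unfolded protein and ATF4 stress response, Vldlr, a lipoprotein receptor, was 2.81-fold higher with TWIST1 and ZEB1, though only 2 of its 6 measured probe sets were 2-fold apart. In 9 of the 18 the TWIST1 and ZEB1 side lay wholly above and in 5 the other, beside 25.6% and 24.8% of all genes. Under 2-fold, Ddit3 (1.90-fold) and Atf3 (1.61-fold) were higher with TWIST1 and ZEB1, and Pdia4 (1.77-fold) with ZEB2 and SNAIL2. The median differences of the 4 lists with no member 2-fold apart were 0.26, 0.20, -0.07 and 0.13. Ctsl, a lysosomal protease, was 1.27-fold higher with TWIST1 and ZEB1 at the closest, and Npc1, a cholesterol exporter of lysosomes, 1.03-fold higher with ZEB2 and SNAIL2. In 8 of the 27 lysosome genes the ZEB2 and SNAIL2 side lay wholly above and in 3 wholly below, beside 24.8% and 25.6% of all genes, and without TWIST1 the list's median difference was -0.018.

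**Figure D4:**
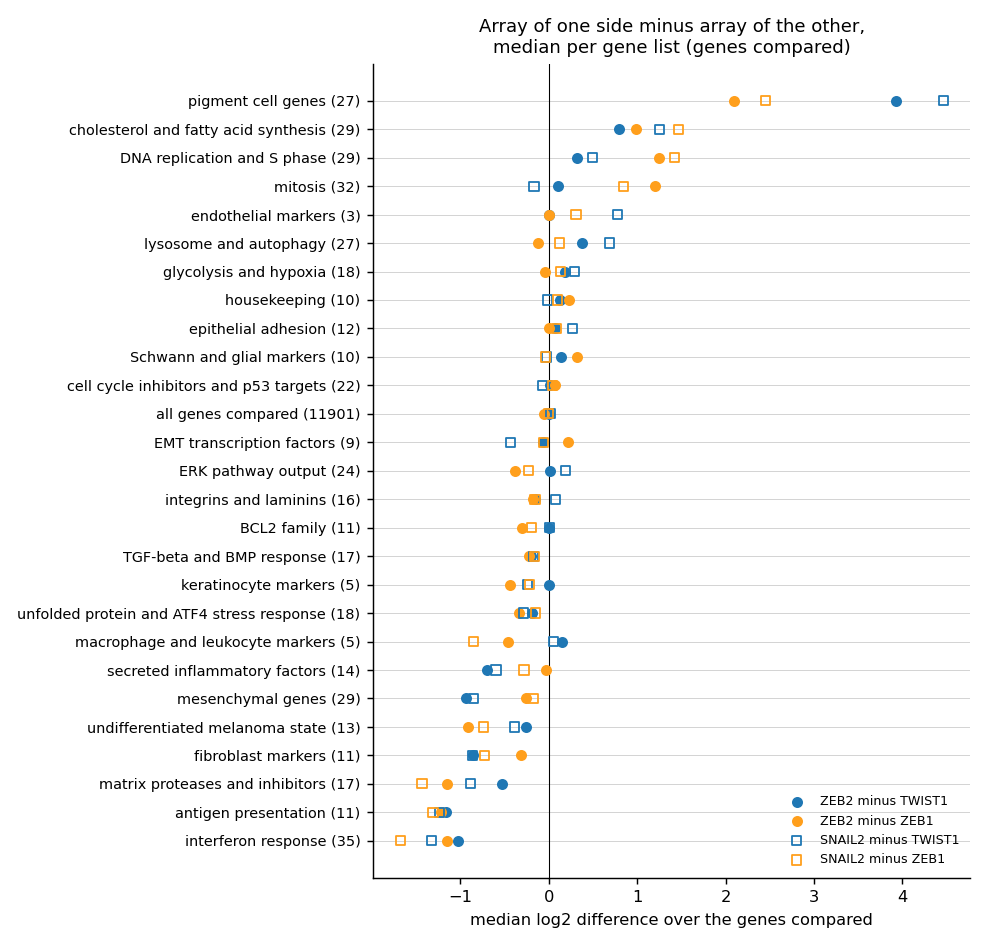
Median log2 difference of each gene list for the 4 pairs of an array of one side and an array of the other (filled circles for ZEB2, open squares for SNAIL2, blue against TWIST1, orange against ZEB1), with the number of genes compared in brackets. Pigment cell genes lie between 2.10 and 4.46 and interferon response genes between -1.68 and -1.03 for all 4 pairs, whereas the mitosis list is near 0 against TWIST1 and at 0.84 and 1.21 against ZEB1.

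The BRAF-off and BRAF-on arrays, which the choice of genes did not use, differed in opposite directions for the genes of the 2 sides. Of the 236 genes higher with ZEB2 and SNAIL2, 215 (91.1%) were lower in BRAF-on than in BRAF-off, beside 47.1% of all genes compared. Of the 193 genes higher with TWIST1 and ZEB1, 145 (75.1%) were higher in BRAF-on, beside 45.8% of all. The median of BRAF-on minus BRAF-off was -0.43 for the first group, 0.33 for the second and 0.00 over all genes. At least 2-fold below BRAF-off were 17 of the 236 (7.20%, beside 0.361% of all genes), and 0 were 2-fold above. At least 2-fold above were 31 of the 193 (16.1%, beside 0.958%), and 0 were 2-fold below. Seen from the other end, the 17 were 39.5% of the 43 genes 2-fold lower in BRAF-on, and the 31 were 27.2% of the 114 genes 2-fold higher.

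Named genes show what this overlap holds. BRAF-on was above BRAF-off by at least 4.36 on the log2 scale for Serpinb2, 3.90 for Fabp4 and 3.89 for Mmp1a, whose BRAF-off signals lay under the floor. Mmp13 (2.99), Gch1, which makes the cofactor tetrahydrobiopterin and was chosen after its values were seen (2.53), Dusp5 (1.70), Ccl2 (1.27) and Ccl5 (1.104) were among the others of the 31. Both ZEB2 and SNAIL2 lay below BRAF-on for all 31 genes, and both TWIST1 and ZEB1 above it for 30. BRAF-on thus lay between the sides for 30 of the 31, beside 87.0% of all 193 genes. The genes were chosen for sides that lie apart, which by itself favours such a place for BRAF-on. Mmp1a, for example, was at 946 in BRAF-on, between 433 with ZEB2 and 2313 with TWIST1. Dusp5 was the exception, since TWIST1 at 566 lay below BRAF-on at 644. Among the 17, Kcnj13 differed by -1.79, Tyr by -1.05, Oca2 by -1.05, Tfec by -1.05, Cfap54 by -1.34 and Mgll by -1.05. BRAF-on lay between the sides for 13 of the 17, beside 91.5% of all 236 genes. For Kcnj13 it did not, since BRAF-on at 157 lay below ZEB1 at 166.

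**Figure D5:**
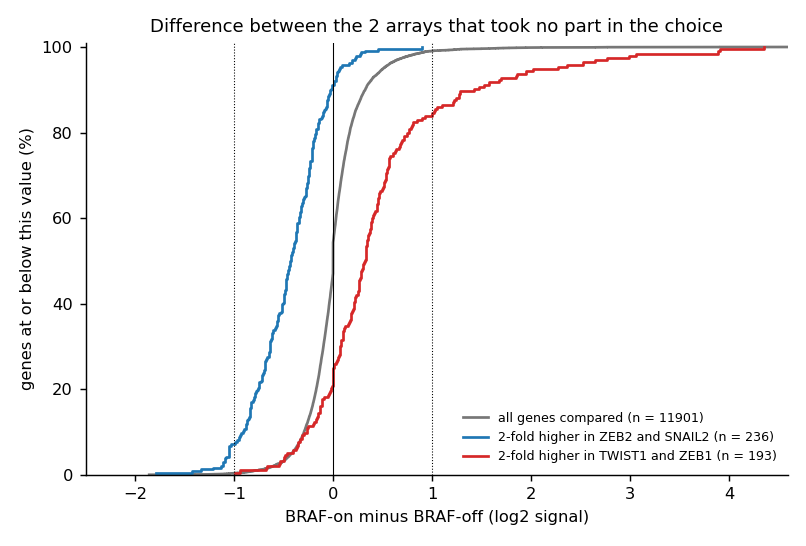
Share of genes (vertical, percent) at or below a given difference between BRAF-on and BRAF-off (horizontal, log2 signal) for all 11901 genes compared, the 236 higher with ZEB2 and SNAIL2 and the 193 higher with TWIST1 and ZEB1. The blue curve crosses 0 at 91.1% and the red curve lies right of the grey one, with 31 genes beyond the dotted line at 1.

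The unmodified arrays mostly lay between the sides. BRAF-on lay between them for 216 of the 236 genes (91.5%) and 168 of the 193 (87.0%). BRAF-off lay between them for 220 of the 236 (93.2%) but for 117 of the 193 (60.6%), and for 74 of the 193 it was at or below the higher array of the lower side. ZEB2 and SNAIL2 both lay above both unmodified arrays for 221 of the 236 genes, and TWIST1 and ZEB1 both lay below them for 223. For the 193 genes, TWIST1 and ZEB1 lay above both unmodified arrays in 188, while ZEB2 and SNAIL2 lay below both in 115. Against BRAF-on, the median of the ZEB2 and SNAIL2 mean was 1.22 for the 236 genes and -0.71 for the 193, and that of the TWIST1 and ZEB1 mean -0.87 and 1.02. The genes were chosen for sides that lie apart, and this choice by itself favours another array lying between them.

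Many genes missed the count because of a single array. The side means were at least 2-fold apart for 547 genes in favour of ZEB2 and SNAIL2 and 603 in favour of TWIST1 and ZEB1, and 311 and 410 of these were not 2-fold apart on all 4 cross ratios. Of the 311, 60 would have passed but for ZEB2 alone, 4 but for SNAIL2, 54 but for TWIST1 and 45 but for ZEB1. Of the 410, the counts were 130 for ZEB2, 9 for SNAIL2, 88 for TWIST1 and 40 for ZEB1. ZEB2 was thus the array that most often stood too near to the other side. Without it, the counts would be 558 and 663 genes in place of 236 and 193, against 491 and 601 without TWIST1 and 442 and 347 without ZEB1, since fewer ratios then have to pass.

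Genes of this kind show where a side was not of one piece. Nrcam, a neuronal adhesion molecule, was at 2809 with ZEB2, 4129.6 with SNAIL2, 468 with TWIST1 and 2259 with ZEB1, low with TWIST1 but not with ZEB1. Pla2g2e, a secreted phospholipase, was at 374 with ZEB2, 534 with SNAIL2, 40.6 with TWIST1 and 418 with ZEB1. Npnt, a matrix ligand of an integrin, was at 828 with ZEB2, 660.2 with SNAIL2, 115 with TWIST1 and 559.7 with ZEB1. They had the same pattern. In contrast, Rbmx, an RNA-binding protein, was at 1129 with ZEB2, 1104 with SNAIL2, 645 with TWIST1 and 166 with ZEB1. Trip13, a mitotic checkpoint ATPase, was at 1984 with ZEB2, 1874 with SNAIL2, 1044 with TWIST1 and 434 with ZEB1. Both were lowest with ZEB1. Car6, Cyfip2 and Rnf128 belonged to the first pattern, with smallest ratios of 1.37-fold, 1.76-fold and 1.69-fold, and Ccdc14 (1.88-fold) to the second. Slc24a4 was held back by ZEB2, as given above.

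On the TWIST1 and ZEB1 side, Mustn1, a gene of muscle and bone repair, was at 98.5 with ZEB2, 68.2 with SNAIL2, 120.1 with TWIST1 and 828 with ZEB1. Apoc1, an apolipoprotein, was at 53.7 with ZEB2, 97.3 with SNAIL2, 122 with TWIST1 and 459 with ZEB1. Both were high with ZEB1, while TWIST1 lay only a little above the other side. Fermt3, an integrin activator of blood cells, was at 71.2 with ZEB2, 56.1 with SNAIL2, 119 with TWIST1 and 532 with ZEB1, in the same pattern. Lrtm2 was at 86.4 with ZEB2, 76.8 with SNAIL2, 702 with TWIST1 and 132 with ZEB1. Plxdc2 was at 94.9 with ZEB2, 53.8 with SNAIL2, 638 with TWIST1 and 115 with ZEB1. Both were high with TWIST1 only, like Il6, Fmod and Cnn1 above. Nbeal1 was at 910.3 with ZEB2, 77.9 with SNAIL2, 1141 with TWIST1 and 759.9 with ZEB1. Ccdc88a, an actin-binding protein named girdin, was at 897 with ZEB2, 94.9 with SNAIL2, 1202 with TWIST1 and 651 with ZEB1. Both were low with SNAIL2 only, differences between SNAIL2 and the other 3 arrays rather than between the sides.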

How the data were processed

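The deposited table holds the authors' linear signal intensity for each probe set on 6 Affymetrix mouse arrays, for which the submitters' processing notes name MAS5 and Affymetrix Expression Console 1.1, from RNA amplified with a 3' IVT Express kit per the labels' protocols. Of 45037 probe sets that are no controls, 34945 carried 1 gene symbol (932 carried several and 9160 none, and were not used), giving 18193 genes, each read by its brightest probe set over the 4 arrays compared. Signals were raised to a floor at the median of all non-control probe sets (64.0), log2 was taken, and 11901 genes above the floor on at least 1 of the 4 arrays were compared by their 4 cross ratios. With 1 array per group there was no test, and the number of arrays limits the precision. The calculation was tested on simulated data.

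The genes, 26 lists and rules were chosen with earlier results of these data known. Named were list members 2-fold apart (the 8 largest in longer lists) and up to 4 others with the largest side difference, the 15 largest ratios measured on all 4 arrays and the 10 largest others in each direction (without clone names or opposed probe sets), the introduced factors, the 2 genes on each edge of the limit, and 10 in each direction held back by 1 array. Other list members were named after their values were seen. Promoter windows are from RefSeq (GRCm38.p6), and both strands were searched. Alternatives concerned scaling, floor, probe set choice, size and each array. Python 3.11.15, numpy 2.4.6, pandas 2.3.3 and matplotlib 3.10.9 were used.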

Additional observations from a re-analysis of the deposited data

Results flagged for a closer look

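The control probe sets for 18S ribosomal RNA, which entered none of the comparisons, were 2.29-fold higher on the arrays labelled ZEB2 and SNAIL2 than on those labelled TWIST1 and ZEB1, by the ratio of the geometric means of the sides. All 3 probe sets had both arrays of the first side above both of the second, and the smallest ratio of their geometric means was 1.88-fold. BRAF-off and BRAF-on lay at 8284 and 7159.6, near the first side. With 1 array per group this difference was not tested, and neither was its part in the other results.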

How the results depend on the processing

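The 236 genes higher with ZEB2 and SNAIL2 became 99 with the floor at the 75th percentile, 569 with no floor and 105 at 3-fold, and the 193 genes higher with TWIST1 and ZEB1 became 81, 546 and 40. With no floor all 18193 genes are compared, and all 236 and 193 genes remained. The genes of TWIST1 and ZEB1 without overlap became 1997 under that higher floor, and the interferon genes 2-fold apart became 10 without probe sets that match several transcripts and 7 at 3-fold. At 3-fold the share of calls in favour of ZEB2 and SNAIL2 was 72.4%, against 55.0% at 2-fold.

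Leaving out 1 array can only add genes, by construction. The 236 became 266 without SNAIL2 and 558 without ZEB2, with the other arrays between, and the 193 became 230 and 663. The genes without overlap ranged from 3714 to 4750 and from 4065 to 4948. With 1 array left out, the median difference ran from -0.018 (without TWIST1) to 0.49 (without ZEB1) for lysosome genes, from -0.10 (without ZEB1) to 1.02 (without TWIST1) for mitosis genes, from -0.22 (without SNAIL2) to 0.0031 (without ZEB1) for integrins and laminins, and from -0.44 (without SNAIL2) to 0.60 (without ZEB2) for the 3 endothelial markers, which also turned to -0.31 with a floor at the 60th percentile. At the 75th percentile no endothelial or keratinocyte marker was left to compare. The cause was not tested. Of 95 named genes 2-fold apart, 39 passed under every alternative that gave them a value, the 3-fold limit included. No paired analysis was possible because each group has 1 array. Signals under the floor give only bounds.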
